A study of Mus musculus with 8 samples.

Results

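Notch signalling passes between touching cells: a ligand of the Jagged or Delta family on one cell binds a Notch receptor on the next, the receptor is cut, and its inner part enters the nucleus with the DNA-binding protein RBPJ. There it switches on a small set of repressor genes of the Hes and Hey families and the feedback inhibitor Nrarp. In embryonic tissues this pathway is best known for arterial endothelium, for the coat of smooth muscle and pericytes on vessels, and for the choice between cell fates in epithelia. The genes described here are 3 receptors (Notch1, Notch2 and Notch3), 2 ligands (Jag1 and Jag2), 4 transcription factors (Hes1, Hey1, Hey2 and Heyl) and Nrarp. They were chosen by name, 10 of the 23478 genes in each of 2 count tables, and all 10 had counts in every library.

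RNA was sequenced from mouse embryos at E13.5. In the first table, cells were sorted from 2 tracheal samples of genotype Bmp4flox/flox, Foxg1Cre+, γSMAeGFP and from 3 of Bmp4flox/flox, γSMAeGFP, so that floxed Bmp4 and the muscle reporter are shared and Cre is carried by the mutants only. Cells positive for EPCAM (epithelium) or for GFP (muscle) were removed in the sort, and the labels call the remainder chondroblasts. In the second table, whole tracheas came from 1 Wls flox/flox, ShhCre+ sample and 2 Wls flox/flox controls without Cre; Wls carries Wnt proteins to the cell surface, and Shh-Cre acts in the airway epithelium. An effect of the Cre allele itself cannot be told apart from that of the deleted gene. The labels do not say which libraries came from separate embryos, so each p-value reflects how far these libraries scatter, and that scatter may be technical.

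The Bmp4 mutant libraries held 12964287 and 15462780 counts, against 48876948 to 55492747 for their controls, and the Wls mutant library held 24596836, against 27237573 and 31399982 for its controls. Levels are given as CPM, the usual scaling of counts to library size, with TMM factors. The targeted genes went with the labels: Bmp4 had 24.1 and 32.2 CPM in Bmp4 mutants, against 99.2 to 124 CPM in controls, and Wls had 65.7 CPM in the Wls mutant, against 153 and 146 CPM in its controls. Both Bmp4 mutant libraries stood apart in 1437 olfactory and vomeronasal receptor genes, at 2417 and 2162 CPM without TMM factors, against 9.25 to 13.7 CPM in controls. A background was measured over 4344 genes chosen for having no counts in any control, so controls are at 0 by choice. Over these genes the mutants averaged 21.1 and 19.5 counts per kilobase of exon. Their 95th percentile was 64.0 and 59.6 among the 2119 genes of at least 1 kilobase. Each Notch gene below is set against this background. Globin genes took 116300 and 970 CPM of the Bmp4 mutant libraries, against 5.16, 9843 and 9915 CPM of the control libraries. Of cartilage genes, Sox9 was high, at 733 to 1946 CPM in controls. Also high there were Col2a1 at 838 to 1525 CPM, Col9a1 at 283 to 454 CPM and Col9a3 at 373 to 651 CPM. Acan had 1.52 to 22.9 CPM and Matn1 at most 0.166 CPM in controls. Fibroblast and perichondrial markers summed to 6960 to 10710 CPM there, against 2943 to 6434 CPM for cartilage markers.

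In the control sorted cells Notch2, Hes1, Hey1 and Notch3 had the highest levels per length, and Jag2 and Nrarp the lowest. Per kilobase of exon, Notch2 had the highest mean level, at 22.8 ± 7.68 CPM per kb (SD, n = 3), followed by Hes1 at 15.7 ± 7.52, Hey1 at 14.9 ± 10.2 and Notch3 at 14.7 ± 4.08 CPM per kb, and the ranges of neighbours among these 4 overlapped. Heyl came next at 8.14 ± 2.01, then Notch1 at 4.72 ± 0.469, Jag1 at 3.58 ± 2.34 and Hey2 at 2.34 ± 1.12 CPM per kb. The lowest were Jag2 at 0.550 ± 0.145 and Nrarp at 0.256 ± 0.0941 CPM per kb, each below every control value of the gene before it. The whole-trachea controls ran in another order, led by Notch3 at 26.8, Hes1 at 21.6 and Notch2 at 18.0 CPM per kb, with Jag1 at 13.1, Nrarp at 7.62 and Jag2 at 4.69 CPM per kb (means of 2 libraries). Kits and scaling differ between the tables, so these levels are set side by side without a test.

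The control sorted libraries differed among themselves for one group of these genes. The highest control exceeded the lowest by 4.78-fold for Hey1, 4.37-fold for Jag1, 2.87-fold for Hey2 and 2.46-fold for Hes1, and by only 1.21-fold for Notch1. Control 1 was lowest for Jag1, Hes1, Hey1, Hey2, Heyl and Nrarp and highest for Notch2 and Notch3. That library also had the lowest sum of the 12 endothelial markers, at 83.1 CPM against 222 and 162 CPM in controls 2 and 3, with Sox17 at 0, and the highest sum of cartilage markers, at 6434 against 3962 and 2943 CPM. The part of these cell types in the spread was not tested.

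**Figure D1:**
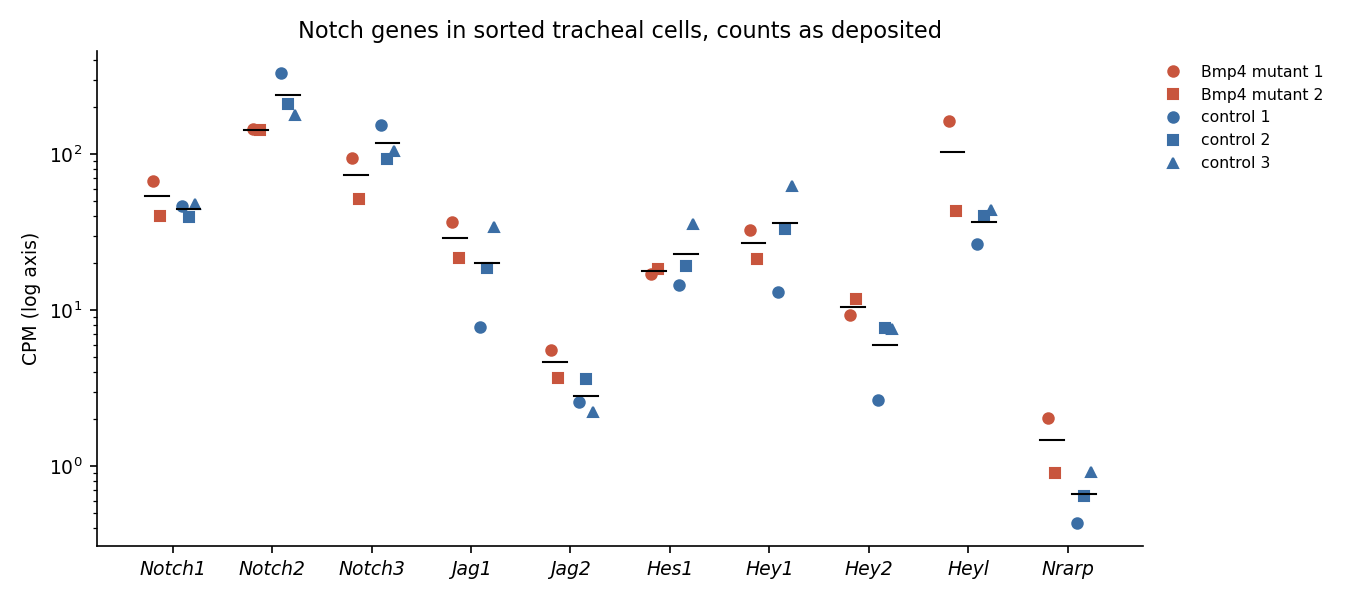
CPM of each of the 10 Notch genes (log axis) in the 2 Bmp4 mutant and 3 control libraries of sorted cells; symbols are libraries and bars are group means. Heyl stands at 163 CPM in mutant 1, above all other libraries, and Notch2 in both mutants lies below the 3 controls.

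The comparison of Bmp4 mutants with controls asks what loss of Bmp4 changes in tracheal mesenchyme depleted of epithelium and muscle. Of the 10 genes, Heyl passed the test as higher and none passed as lower (edgeR's quasi-likelihood test, Benjamini-Hochberg adjusted p under 0.05 over 21665 genes). In the same test 39.3% of all genes were called higher and 15.6% lower. At an unadjusted p under 0.05 the count was 1 higher and 1 lower, beside 9167 higher and 4083 lower of the 21665 genes. DESeq2 called 1 higher and 1 lower, and limma-voom 0 in each direction. The median log2 fold change of the 10 genes was 0.41, against 0.53 over all genes tested. A background limit was set at a mean CPM over all 5 sorted libraries of at least 3 times the mutant background expected for the exon length of a gene. Control libraries enter this mean, so a gene high in controls passes the limit more easily. That leans fold changes lower above the limit and higher under it. The 6 members above that limit had a median of -0.40, against -0.38 over all 9805 such genes tested, and the 4 members under it had a median of 0.77, against 3.58 over 11860 genes. With scaling factors taken from genes above the limit, the median of all genes was 0.91 and that of the 10 genes 0.79, no member changed direction, and Heyl stayed the only one called. Notch1, Notch2, Notch3, Hes1, Hey1 and Heyl reached that limit, and Jag1, Jag2, Hey2 and Nrarp did not. Jag1 did not although its mutant counts per kilobase were 4.24 and 3.5 times the mean background rate. As first scaled, 1 of the 6 members above it was called higher and 0 lower, beside 444 higher and 3295 lower of 9805 genes. Of the 4 members under it 0 were called, beside 8063 higher and 86 lower of 11860 genes.

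Among the receptors, Notch2 (GRCm38, chromosome 3, 98013527 to 98150361) had the lowest fold change. It had 145 and 142 CPM in Bmp4 mutants, against 331, 208 and 178 CPM in controls. Cartilage markers summed to 686 and 1605 CPM in mutants and 6434, 3962 and 2943 CPM in controls. Of the 12, 7 were called lower and 1 higher, beside 15.6% and 39.3% of all genes. Their sum was highest in control 1, as Notch2 was, and their part in the level of Notch2 was not tested. Both mutants were below every control, as for 25.6% of all genes tested, and the log2 fold change of -0.73 ± 0.27 (SE) did not pass (edgeR's adjusted p = 0.0531). It passed with DESeq2 (adjusted p = 0.0330), without the expression filter (0.0493) and without control 3 (0.0258), and was at -0.42 without control 1. After subtraction of the background its log2 fold change was -0.33 ± 0.27 (adjusted p = 0.508). Notch2 is widely expressed in mesenchyme, and 11.1% and 8.15% of its mutant counts equal the expected background.

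Notch3 (chromosome 17, 32120820 to 32166852), the receptor of pericytes and vascular smooth muscle, had 95.2 and 51.6 CPM in Bmp4 mutants, against 155, 93.1 and 105.5 CPM in controls. Its groups overlapped through mutant 1 and control 2, with a log2 fold change of -0.68 ± 0.32 (edgeR's adjusted p = 0.103), and -0.34 ± 0.37 after subtraction (adjusted p = 0.628). Notch1 (chromosome 2, 26457903 to 26516663), a receptor of endothelium and many progenitors, had 67.8 and 40.4 CPM in Bmp4 mutants, against 46.7, 39.7 and 47.9 CPM in controls. Mutant 2 lay within the range of the controls and mutant 1 above it, and the log2 fold change was 0.27 ± 0.23 (adjusted p = 0.349). Without mutant 2 it was 0.60 (adjusted p = 0.0466), and without mutant 1 it was -0.17.

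Within a library the make-up of the receptors does not depend on scaling. Notch1 made up 20.2% and 17.0% of the CPM per kb of the 4 receptor genes in Bmp4 mutants, against 8.77%, 11.5% and 14.1% in controls. The mutants were above all controls, as were 48.2% of single genes in CPM as deposited and 21.2% of 9807 genes after subtraction. Those percentages are for single genes, not for parts of a sum. With the background subtracted the share of Notch1 was 19.2% and 15.0% in mutants, so that mutant 2 lay close to control 3. Notch2 took 39.2% and 54.1% in mutants and 56.1%, 54.8% and 47.6% in controls, so mutant 1 had the lowest share and mutant 2 lay within the controls. Notch4, the endothelial receptor, took 6.96% and 3.22% in mutants and 0.608% to 1.62% in controls, but 3.15% and 0% in mutants after subtraction. These shares were not tested.

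The ligands were low in the sorted cells. Jag1 (chromosome 2, 137081456 to 137116644), a ligand of vessels, muscle and epithelium, had 36.7 and 21.7 CPM in Bmp4 mutants, against 7.75, 18.6 and 33.9 CPM in controls. The controls spread over most of that span, and the log2 fold change of 0.54 ± 0.55 did not pass (edgeR's adjusted p = 0.432). Its mutant counts, 89.5 and 68.3 per kilobase, stood above the 95th percentile of the background genes in both libraries. Jag2 (chromosome 12, 112907819 to 112929776), a ligand of epithelium and endothelium, had 76 and 65 counts in Bmp4 mutants, or 5.55 and 3.68 CPM, against 131, 165 and 107 counts in controls, or 2.56, 3.64 and 2.22 CPM. Although both mutants were above the controls in CPM, as for 48.2% of all genes tested, the expected background was 108 and 99.6 counts, more than was counted, so expression of Jag2 in the mutants was not detectable over the background. The sum of the 13 epithelial markers was 114 and 65.1 CPM in mutants and 26.3 to 38.8 CPM in controls, with Shh and Krt5 at 0 in all 3 controls.

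**Figure D2:**
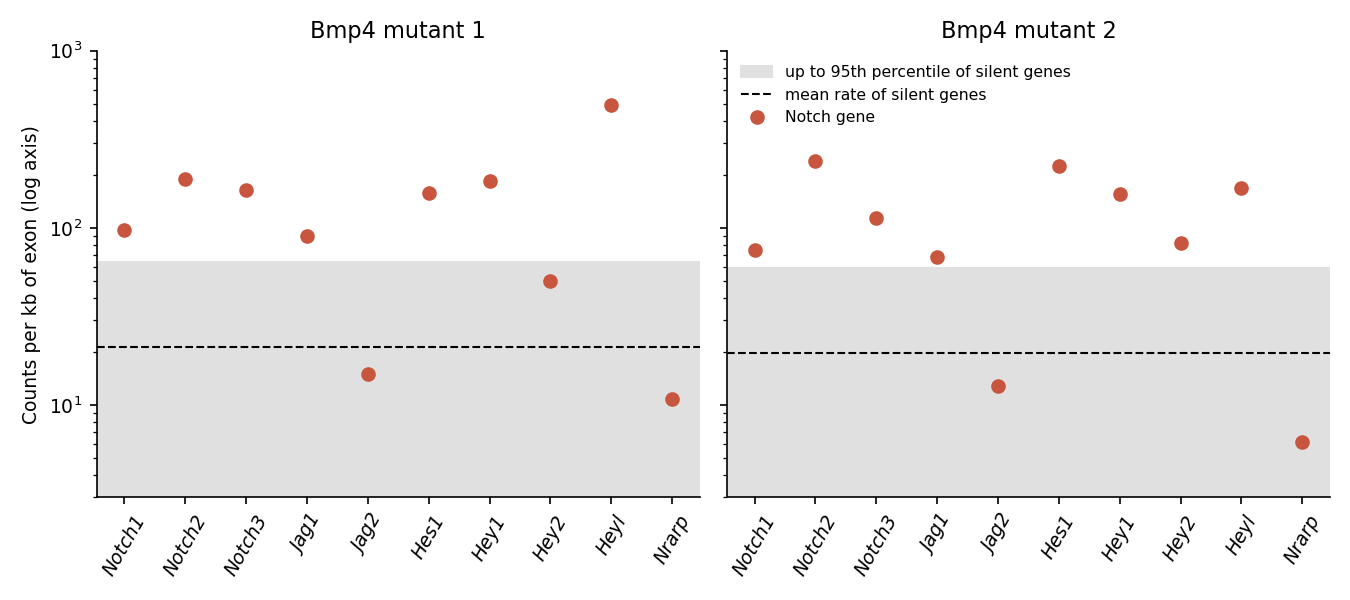
Counts per kilobase of exon (log axis) of the 10 Notch genes in Bmp4 mutants 1 and 2, with the mean rate of genes silent in all controls (dashed) and the span up to their 95th percentile (grey). Jag2 and Nrarp lie under the dashed line in both libraries, and Hey2 lies in the grey span in mutant 1 only.

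Heyl (chromosome 4, 123233556 to 123249875), a Hey family repressor found in vascular smooth muscle and pericytes, had 163 and 43.4 CPM in Bmp4 mutants, against 26.7, 40.1 and 44.1 CPM in controls. Mutant 2 lay within the controls, and mutant 1 was above every other library. The log2 fold change of 1.48 ± 0.49 passed (edgeR's adjusted p = 0.0363), and it was 0.21 without mutant 1 (adjusted p = 0.634). The call was also lost with limma-voom (0.157), without control 1 (0.0678), without control 2 (0.0825), without control 3 (0.0510) and after subtraction, where the fold change was 1.98 ± 0.59 (adjusted p = 0.131). The 12 smooth muscle markers moved in the same library, with a sum of 1835 CPM in mutant 1 and 442 CPM in mutant 2, against 316 to 356 CPM in controls. Of the 12, 8 were called higher, beside 39.3% of all genes. After subtraction 1 of 8 tested passed by edgeR, with 7 higher at an unadjusted p under 0.05. The 8 pericyte markers summed to 541 and 400 CPM in mutants and 457 to 566 CPM in controls, with Higd1b at 0 in all 3 controls. That sum is mostly Pdgfrb and Cspg4, and 6 of the 8 had positive fold changes, with a median of 0.83, 3 called higher and 1 lower. The 3 called higher, Rgs5, Abcc9 and Higd1b, were under the background limit. After subtraction 0 of 5 pericyte markers passed by edgeR, with 3 higher at an unadjusted p under 0.05. Their part in the level of Heyl was not tested, and in a pool of cells more cells of a type and more RNA per cell cannot be told apart. Heyl counts per Notch3 count were 1.71 and 0.840 in Bmp4 mutants, against 0.172, 0.431 and 0.418 in controls, a ratio that needs no scaling. In this ratio the mutants were above all controls. For the CPM of single genes that was so in 48.2% as deposited and in 21.2% of 9807 genes after subtraction. Those percentages are not of ratios, and the pair of Heyl and Notch3 was not among the planned comparisons. Jag1 counts per Notch2 count were 0.252 and 0.152 in Bmp4 mutants, against 0.0234, 0.0893 and 0.19 in controls, so there the groups overlapped. Neither ratio was tested.

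Hes1 and Hey1 overlapped between the groups. Hes1 (chromosome 16, 30064384 to 30067796), a repressor that keeps progenitors undifferentiated and also responds to other signals, had 16.9 and 18.5 CPM in Bmp4 mutants, against 14.4, 19.3 and 35.5 CPM in controls. Hey1 (chromosome 3, 8663359 to 8667256), a target in endothelium and mesenchyme, had 32.6 and 21.2 CPM in Bmp4 mutants, against 13.0, 33.0 and 62.2 CPM in controls. For both genes the mutants lay inside the range of the controls, with log2 fold changes of -0.38 ± 0.39 (edgeR's adjusted p = 0.427) and -0.42 ± 0.57 (adjusted p = 0.553). After subtraction they were -0.02 ± 0.41 and -0.05 ± 0.64. Without control 3, their highest library, both turned positive, at 0.08 and 0.23.

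Hey2 and Nrarp are direct RBPJ targets in many tissues, and their promoters are shown because both genes lay under the background limit. Of the 10 genes 7 have an entry in the RefSeq promoter table (GRCm38.p6). Each sequence runs 5′ to 3′ on the gene's strand from 250 bases before the start site to 10 after it, at chr10:30842774-30843033 (minus strand) for Hey2, chr2:25180508-25180767 (plus strand) for Nrarp and chr12:112929486-112929745 (minus strand) for Jag2, the ligand that passed the test in the tracheas. Capitals mark the RBPJ core GTGGGAA on either strand.
Hey2: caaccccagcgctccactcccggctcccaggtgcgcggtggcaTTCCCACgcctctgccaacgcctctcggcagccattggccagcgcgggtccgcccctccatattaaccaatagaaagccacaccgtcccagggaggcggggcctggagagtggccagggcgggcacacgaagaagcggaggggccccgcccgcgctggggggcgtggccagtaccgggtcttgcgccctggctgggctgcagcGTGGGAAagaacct
Nrarp: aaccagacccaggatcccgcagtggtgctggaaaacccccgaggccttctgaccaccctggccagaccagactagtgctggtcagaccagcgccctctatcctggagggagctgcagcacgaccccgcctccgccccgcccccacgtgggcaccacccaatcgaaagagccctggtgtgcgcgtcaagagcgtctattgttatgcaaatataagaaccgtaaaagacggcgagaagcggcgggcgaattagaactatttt
Jag2: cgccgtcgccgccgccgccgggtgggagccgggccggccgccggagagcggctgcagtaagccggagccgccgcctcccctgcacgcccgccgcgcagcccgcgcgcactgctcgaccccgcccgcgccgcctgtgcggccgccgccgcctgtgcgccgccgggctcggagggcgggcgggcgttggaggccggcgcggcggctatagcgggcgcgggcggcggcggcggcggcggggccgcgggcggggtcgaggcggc
Hey2 had 2 matches, beginning 207 and 4 bases before the start site, and none was found in the windows of Nrarp, Jag2, Jag1, Notch1, Notch2 and Notch3. Over all 32851 promoters 5.58% held GTGGGAA, and 22.4% held the shorter core TGGGAA, which lies within it and had the same 2 places in Hey2 and none in the other windows. A match is a string of letters, not a shown binding site.

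Hey2 (chromosome 10, 30832359 to 30842801), a Hey repressor of artery and heart, had 9.28 and 11.8 CPM in Bmp4 mutants, against 2.66, 7.63 and 7.58 CPM in controls. Both mutants were above the controls, as for 48.2% of all genes tested. The log2 fold change of 0.82 ± 0.52 did not pass (edgeR's adjusted p = 0.213), and the expected background equals 42.3% and 23.9% of the mutant counts. Nrarp (chromosome 2, 25180758 to 25183339), which Notch induces and which in turn blunts Notch, had 28 and 16 counts in Bmp4 mutants, or 2.05 and 0.906 CPM, against 22, 29 and 44 counts in controls, or 0.430, 0.640 and 0.914 CPM. The expected background of 54.5 and 50.4 counts exceeded both mutant counts, so the log2 fold change of 1.15 ± 0.72 (adjusted p = 0.209) is not a measure of transcription. Control counts of Nrarp were also few for libraries of this depth.

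**Figure D3:**
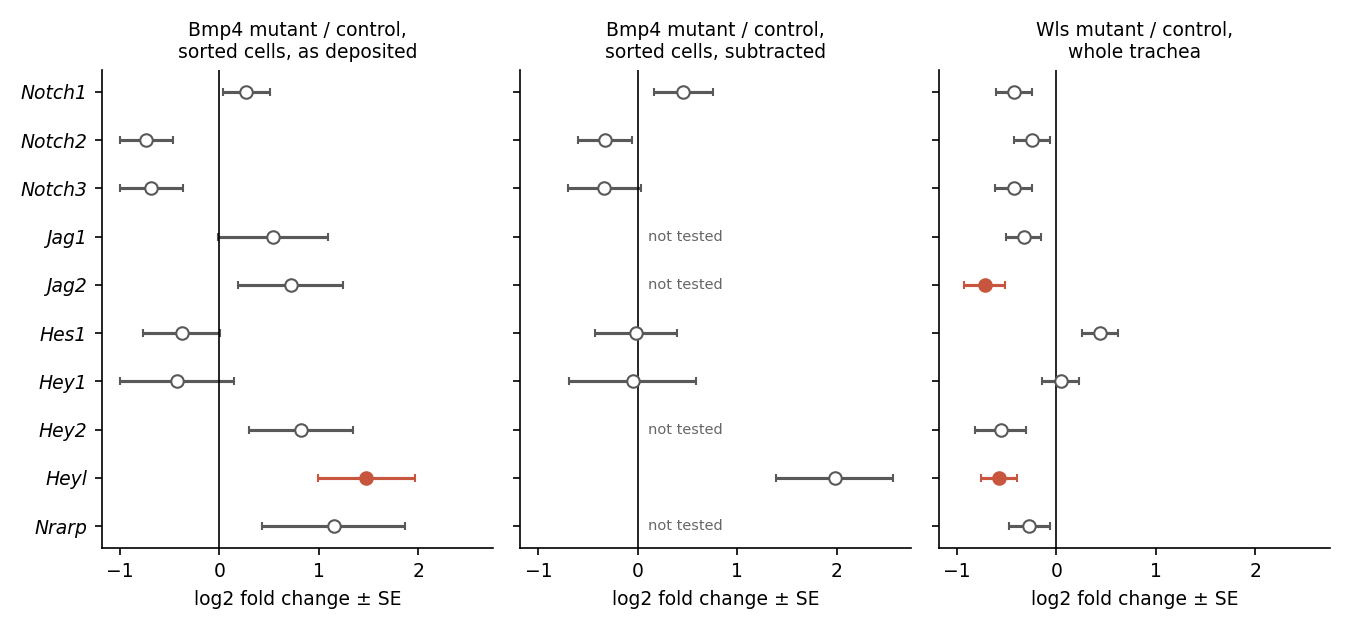
Log2 fold change ± SE of the 10 Notch genes for Bmp4 mutant over control sorted cells as deposited (left) and with the background subtracted (middle), and for Wls mutant over control tracheas (right). Filled points passed edgeR's test: Heyl in the left panel at 1.48, and Jag2 at -0.72 and Heyl at -0.58 in the right panel.

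Other genes of the pathway were counted in the same test. Of 46 listed genes 12 were called higher and 7 lower in Bmp4 mutants, beside 39.3% and 15.6% of all genes. Of the 20 under the background limit 9 were called higher and 1 lower, and of the 26 above it 3 were called higher and 6 lower. The 1 lower under the limit was Spen, a corepressor of RBPJ targets, and the 3 higher above it were Psen2, a catalytic subunit of γ-secretase, Fbxw7, which marks Notch for breakdown, and Dtx4, all 4 named after their values were seen. Over all genes the calls were 8063 higher and 86 lower of 11860 under the limit, and 444 higher and 3295 lower of 9805 above it. The largest higher fold changes belonged to Hes2, Hes3, Lfng and Kat2b. Hes2, a relative of Hes1, had 33 and 38 counts in mutants and 0 in every control, which at 13.1 and 15.1 counts per kilobase is under the mean background rate, and Hes3 had 32 and 22 counts in mutants and 8, 0 and 0 in controls, also under that rate. Lfng, a glycosyltransferase that tunes ligand choice, had 40.8 and 31.7 counts per kilobase in mutants, inside the span of the background, and Kat2b, a histone acetyltransferase of the Notch complex, had 46.6 and 64.9, above that span in mutant 2 only.

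Of the 8 genes of the nuclear complex 4 were called lower and 1 higher. Of the 9 genes for cutting the receptor, γ-secretase included, 1 was called lower and 2 higher. Over all genes 15.6% were called lower and 39.3% higher. The fold changes of the 3 lower genes named here were smaller after subtraction of the background. In the subtracted test 0.357% of 9807 genes were called lower and 0.846% higher. In that test none of the 6 Notch genes above the limit passed by edgeR, and 1 of them, Heyl, had an unadjusted p under 0.05. The RBPJ cofactor Snw1, Aph1a, a subunit of γ-secretase, and the coactivator Maml2 had log2 fold changes of -0.86 ± 0.16, -0.85 ± 0.14 and -0.80 ± 0.20 as deposited (adjusted p = 0.00405, 0.00335 and 0.0132), and -0.37, -0.50 and -0.62 after subtraction (adjusted p = 0.217, 0.123 and 0.192).

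Rbpj, the DNA-binding partner of all Notch receptors, had 45.6 and 65.5 CPM in Bmp4 mutants, against 64.1, 61.2 and 68.6 CPM in controls, with a log2 fold change of -0.22 ± 0.18 (edgeR's adjusted p = 0.343). Dll1 had 15.1 and 16.4 CPM in mutants and 1.70, 11.6 and 6.13 CPM in controls, and Dll4, an arterial ligand, had 6.28 and 1.53 CPM in mutants and 0.859, 2.93 and 1.62 CPM in controls, and neither passed (adjusted p = 0.146 and 0.277). Notch4 had 16.2 and 5.32 CPM in mutants and 2.25, 3.86 and 3.41 CPM in controls, a log2 fold change of 1.76 ± 0.57 (adjusted p = 0.0332), with mutant counts of 33.7 and 14.3 per kilobase that lie within the span of the background. Endothelial markers summed to 347 and 244 CPM in mutants and 83.1 to 222 CPM in controls, with 2 of 12, Kdr and Cdh5, called higher and 0 lower, beside 39.3% of all genes called higher. The expected background equals 54.4% and 44.8% of the mutant counts of Cdh5, and after subtraction 0 of the 6 endothelial markers tested passed by edgeR, with 2 at an unadjusted p under 0.05.

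In the whole tracheas the comparison asks what changes when the epithelium cannot release Wnt proteins. Jag2 and Heyl fell in the Wls mutant, and none of the 10 genes passed as higher, beside 2.42% and 1.90% of 15815 genes called lower and higher (edgeR). At an unadjusted p under 0.05 there were 5 lower and 1 higher, beside 1269 lower and 991 higher of the 15815 genes. DESeq2 and limma-voom called 0 of the 10. The mutant was below both controls for 8 of the 10 genes, as for 37.6% of all genes, and above both for Hes1 and Hey1, as for 36.9%. The median log2 fold change was -0.38 for the 10 genes and -0.01 over all genes. With 1 mutant library the test has 1 residual degree of freedom and assumes that the mutant varies like the controls. By a rule of size without a test (a difference of at least 1 in log2 CPM, beyond the controls by more than they differ, mean log2 CPM of at least 3) none of the 10 was past the limit, where 0.493% of genes were lower and 0.253% higher.

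**Figure D4:**
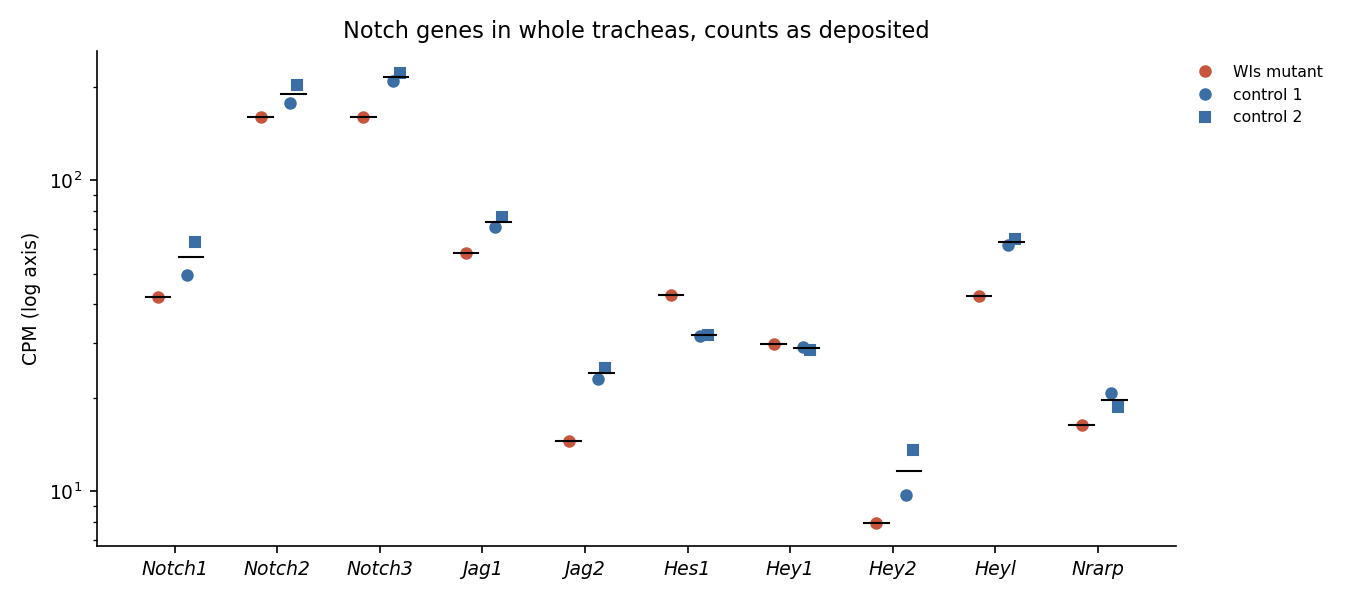
CPM of the 10 Notch genes (log axis) in the Wls mutant trachea and the 2 control tracheas; points are libraries and bars are group means. The mutant lies below both controls for all genes but Hes1 and Hey1, with Jag2 at 14.5 CPM against 23.1 and 24.9 CPM.

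Jag2 had 14.5 CPM in the Wls mutant, against 23.1 and 24.9 CPM in controls, a log2 fold change of -0.72 ± 0.21 (edgeR's adjusted p = 0.0191). Its adjusted p was 0.250 with DESeq2 and 0.0641 with limma-voom. Epithelial markers, of cells that make Jag2, summed to 1181 CPM in the mutant and to 868 and 718 CPM in controls. Of the 13, 7 were called higher and 1 lower, and 3 had negative fold changes. The 1 called lower was Krt5 of basal cells, at 6.59 CPM in the mutant and 11.6 and 21.7 CPM in controls. Krt15 (7.70 CPM, against 8.74 and 12.5 CPM) and Trp63 (9.995 CPM, against 15.7 and 12.9 CPM) were also below both controls but were not called. Endothelial markers summed to 408 CPM in the mutant and to 533 and 580 CPM in controls. So the ligand was lower in the library with the higher epithelial sum and the lower endothelial sum, and the part of either was not tested. Jag1 had 58.5 CPM in the Wls mutant, against 70.8 and 76.5 CPM in controls (log2 fold change -0.33 ± 0.18, adjusted p = 0.389).

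Heyl had 42.5 CPM in the Wls mutant, against 62.0 and 64.9 CPM in controls, a log2 fold change of -0.58 ± 0.18 (edgeR's adjusted p = 0.0419). The controls lay close together and the mutant stood apart from them; the call was lost with DESeq2 (0.228), limma-voom (0.0680) and without the expression filter (0.0578). Pericyte markers summed to 307 CPM in the mutant and 387.5 CPM in each control, but the list was mixed: Pdgfrb and Cspg4 were called lower, Kcnj8, Rgs5 and Abcc9 higher, and the median of 7 was 0.15. Smooth muscle markers summed to 3285 CPM in the mutant and 2462 and 2081 CPM in controls. Of the 12 endothelial markers 11 had negative fold changes, as had 8189 of the 15815 genes tested, and their median was -0.43. Cdh5 and Erg were called lower (2 of 12) and 0 higher, beside 2.42% and 1.90% of all genes. The part of these cell types was not tested. Hey2 had 7.91 CPM in the Wls mutant, against 9.75 and 13.6 CPM in controls, and Nrarp had 16.3 CPM, against 20.7 and 18.7 CPM, neither past the test (adjusted p = 0.269 and 0.618).

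Hes1 went the other way in these tracheas, with 42.9 CPM in the Wls mutant, against 31.7 and 31.9 CPM in controls, and its log2 fold change of 0.43 ± 0.18 did not pass (edgeR's adjusted p = 0.193). Hey1 was level, at 29.7 CPM in the mutant and 29.1 and 28.5 CPM in controls. Of the receptors, Notch3 had 160 CPM in the Wls mutant, against 209 and 221 CPM in controls, Notch1 had 42.1 CPM, against 49.7 and 63.4 CPM, and Notch2 had 160 CPM, against 177 and 202 CPM. All 3 receptors were below both controls, as were 37.6% of all genes. None passed, with log2 fold changes of -0.43 ± 0.18, -0.43 ± 0.18 and -0.25 ± 0.18 (edgeR's adjusted p = 0.218, 0.219 and 0.598). Their make-up moved little: Notch3 took 48.4% of the receptor CPM per kb in the mutant and 52.0% and 49.1% in controls.

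**Figure D5:**
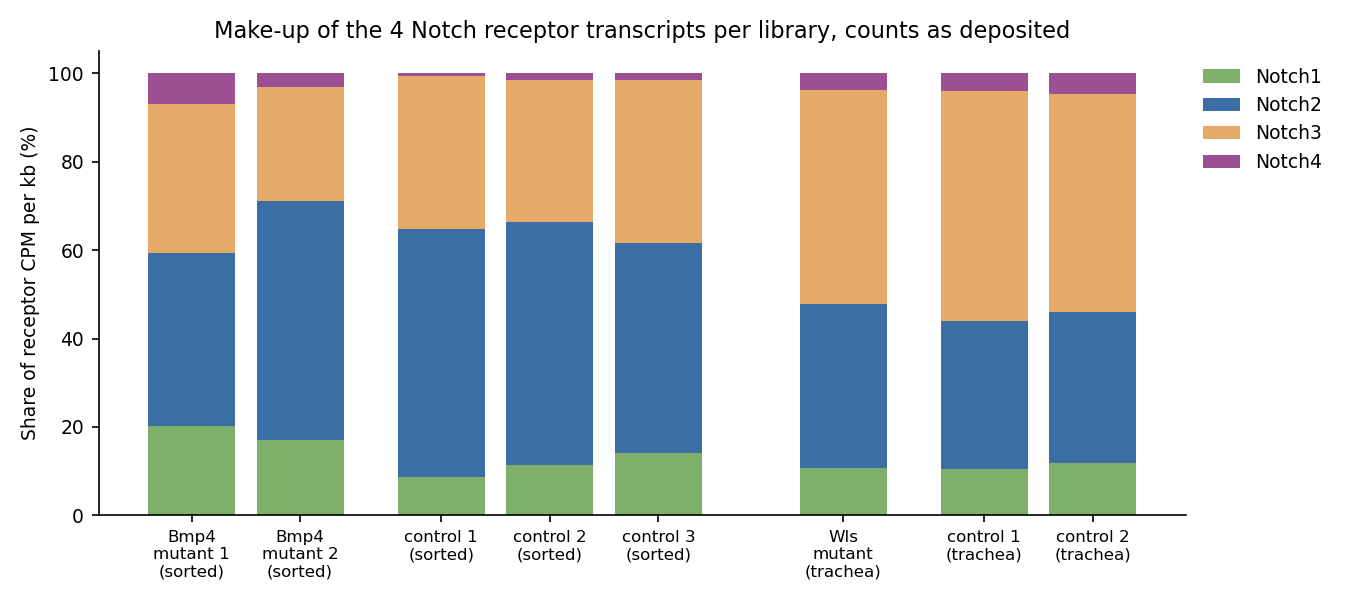
Stacked bars give the share (%) of Notch1, Notch2, Notch3 and Notch4 in the summed CPM per kb of the 4 receptor genes, for 8 libraries with counts as deposited. Notch1 takes 20.2% and 17.0% in the Bmp4 mutants and 8.77% to 14.1% in their controls, and Notch3 is the largest share in the 3 tracheas.

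Of the 46 other pathway genes 44 were tested in the tracheas, with 1 called higher and 1 lower, near the 1.90% and 2.42% of all genes. Neurl1b, a ubiquitin ligase for Notch ligands, had 20.8 CPM in the Wls mutant, against 12.6 and 13.7 CPM in controls (log2 fold change 0.66 ± 0.21, edgeR's adjusted p = 0.0467). Mib1, the ubiquitin ligase that makes ligands active in the sending cell, had 24.99 CPM in the mutant, against 28.2 and 50.9 CPM in controls, which differed more from each other than the mutant did from control 1 (log2 fold change -0.66 ± 0.20, adjusted p = 0.0257). All 8 genes of the nuclear complex had negative fold changes, as had 8189 of the 15815 genes tested. The 8 lay between -0.53 and -0.01, and none passed by edgeR, with 2, Spen and Maml2, at an unadjusted p under 0.05. Rbpj had 150 CPM in the Wls mutant, against 152.5 and 153 CPM in controls (log2 fold change -0.03 ± 0.18, adjusted p = 0.976). Dll1 and Dll4 had 4.51 and 13.9 CPM in the mutant, against 3.10 and 4.48 CPM and 11.8 and 12.7 CPM in controls, and Notch4 had 10.6 CPM, against 13.1 and 17.7 CPM, and none of the 3 passed (adjusted p = 0.845, 0.810 and 0.209).

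For the 6 Notch genes above the background limit, the most similar genes were found over the 8 libraries, among 8773 genes, by the root mean square difference of log2 CPM after each table was centred on its controls. Hey1 lay nearest to Gucy1a3, a subunit of soluble guanylate cyclase, with a difference of 0.131, then to Srf, a regulator of muscle and growth genes, at 0.255 and Npnt at 0.271. Heyl lay farther from any gene, with Gmpr at 0.289, Pdlim1 at 0.304 and Dhrs11 at 0.323. The nearest genes were Hexdc at 0.0942 for Notch1, Atxn2l at 0.0892 for Notch2, Tln1, the adaptor talin of integrins, at 0.137 for Notch3 and Dynlt1a at 0.131 for Hes1. Likeness over 8 libraries of 2 tables is a description and was not tested.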

How the data were processed

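The authors deposited raw counts per gene symbol for sorted cells and for whole tracheas. Bowtie2, Cufflinks, DESeq and the mm10 build are listed in the submitters' processing notes, with Trim Galore for the sorted cells; the counter, its annotation and whether it used strand were not found there, so a gene and an antisense partner cannot be told apart. Per the labels' protocols, a SMART-Seq v4 kit amplified the sorted-cell RNA and an Ovation v2 kit the tracheal RNA, so each table was tested alone. The main test was that of edgeR 4.0.16 under R 4.3.3 (TMM, default filter, quasi-likelihood F test), with DESeq2 1.42.0 and limma 3.58.1 as alternatives. The SE comes from the fold change and F. Exon lengths came from GENCODE vM21 transcripts linked to RefSeq (23125 of 23478 symbols matched). For the subtracted test, the rate of genes silent in controls times exon length was removed from each mutant library, and 9807 genes above the background limit were kept. An alternative, called the receptor rate below, used the count rate of 1437 olfactory and vomeronasal receptor genes, not of Notch receptors. edgeR was tested on simulated data. All 10 members are named; other pathway genes were named if among the 4 largest called fold changes per direction, with Rbpj, Dll1, Dll4 and Notch4. A gene that this rule names is not reported here. Members and lists were chosen with earlier results of these data known. Reads carry no molecular identifiers, so depth bounds counting error only. Replicate pairs differed by 24.5 to 193 times counting noise, and each library counts on its own.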

Additional observations from a re-analysis of the deposited data

How the results depend on the processing

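For single Notch genes, 129 of 158 values under the alternatives in sorted cells and 55 of 60 in tracheas kept their direction and their side of the threshold. In sorted cells the counts of members called higher and lower were 1 and 1 with DESeq2 and without the expression filter, 0 and 0 with limma-voom, and 0 and 0 after subtraction with either rate. Leaving out 1 library gave 0 to 2 higher and 0 to 1 lower, or after subtraction 0 to 1 higher and 0 lower; the 2 higher came without mutant 2. Other pathway genes called higher and lower were 7 and 7 with limma-voom, 14 and 3 with scaling from genes above the background, 0 and 1 after subtraction and 0 and 0 with the receptor rate, and ranged from 3 to 9 higher and 4 to 9 lower when 1 library was left out, or 0 higher and 0 to 1 lower after subtraction. All genes called numbered 11888 as deposited, 118 after subtraction, 142 with the receptor rate, and 3595 (without mutant 1) to 10478 when 1 library was left out, or 0 to 213 after subtraction. Scaling from genes above the background moved the split of all calls from 8507 higher and 3381 lower to 9837 and 818.

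Replicate numbers are not said to pair libraries; deviations of same-numbered libraries correlated at -0.233 and -0.148. With the replicate block, 0 members, 0 other pathway genes and 4 of all genes were called, and 0 of each after subtraction. Hes1 and Hey1 then turned to 0.086 and 0.34, and after subtraction to 0.46 and 0.71. No paired analysis was possible in the tracheas because the mutant's label has no number. Directions also turned when 1 library was left out. Notch1 was at -0.17 without mutant 1 and -0.13 after subtraction. Hes1 and Hey1 ranged from -0.63 to 0.076 and from -0.82 to 0.23, the upper values without control 3, where they were 0.44 and 0.60 after subtraction, and without mutant 2 the subtracted Notch3 and Hey1 were at 0.14 and 0.32. The cause was not tested.

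In tracheas DESeq2 and limma-voom called 0 members and 0 other pathway genes, and without the expression filter 1 member was called lower. DESeq2 called 268 genes in all, against 682 by edgeR. With a mean log2 CPM of at least 1 the rule of size took 278 genes instead of 118, and 0 members. Without either control the 10 members kept their direction. Nrarp and Jag2 cannot be read in the Bmp4 mutants, whose counts of them lie under the background.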
